A study of Homo sapiens with 6 samples.

Results

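The expression of 9 aldehyde dehydrogenase (ALDH) genes was examined in H660 cells, an established line of neuroendocrine prostate cancer (NEPC). The members were ALDH1A1, ALDH1A2, ALDH1A3, ALDH1B1, ALDH2, ALDH3A2, ALDH3B1, ALDH7A1 and ALDH9A1, taken as the entries with these symbols among the 28008 genes of the deposited count table. The cells in both groups carried the same tetracycline-inducible vector with 1 short hairpin RNA (shRNA) against MUC1 and had been selected with puromycin. The DOX-negative group (n = 3 libraries) received 0.1% DMSO as vehicle, and the DOX-positive group (n = 3) received doxycycline (DOX) at 500 ng/ml, which switches on the shRNA. Per the labels the RNA came from triplicate cultures. A line with a control shRNA and DOX was not analysed here, so an effect of DOX itself and one of the shRNA cannot be told apart. Total counts were between 47620696 and 74061121 per library. The targeted gene, MUC1, was at 79.6 to 90.2 CPM (counts set to a common library size with TMM factors) without DOX and at 29.9 to 37.2 CPM with DOX. Its log2 fold change was -1.32 (SE 0.096, adjusted p = 0.00017).

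Aldehyde dehydrogenases oxidize aldehydes to carboxylic acids with NAD or NADP as the cofactor, and members differ in their substrates and in where they sit in the cell. The ALDH1A enzymes make retinoic acid from retinaldehyde, and retinoic acid activates the nuclear receptors RARA, RARB and RARG. High ALDH activity, to which ALDH1A1 can contribute, is widely used to mark stem-like cells in carcinomas.

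ALDH1A1 and ALDH3B1 were higher with DOX, by 1.35-fold and 1.99-fold, and both passed the test. ALDH1A1 was also the most abundant aldehyde dehydrogenase in each of the 6 libraries. The other 5 members that could be tested, which were ALDH1B1, ALDH2, ALDH3A2, ALDH7A1 and ALDH9A1, did not pass, and ALDH1A2 and ALDH1A3 had almost no counts. Thus 7 of the 9 members were tested, 2 were called higher and 0 lower, at an adjusted p under 0.05 by the quasi-likelihood test of edgeR across 17026 genes. In that comparison 4.87% of all tested genes were called, and 2.91% were called higher. The members were chosen with earlier results of these data known, so the count is a description. The log2 fold changes of the 7 tested members had a median of 0.090, against 0.00034 over all tested genes, with 5 above and 2 below 0. Groups did not overlap in CPM for 2 of the 7 members, and for 28.1% of all tested genes (14.8% with the DOX-positive libraries higher). These are bulk libraries, in which a change in the number of cells with a transcript and a change in its amount per cell cannot be told apart.

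The sequences around the annotated transcription starts of the pair of members that passed the test are shown, because they let the genes be placed and their base composition be compared. They come from RefSeq on build GRCh38.p14, run from 250 bases before to 50 bases after each start and read 5′ to 3′ on the strand of the gene. Capitals mark matches to any of 5 short motifs, searched on both strands. ALDH1A1 lies on the minus strand of chromosome 9 (72900671 to 72953053) and its window is chr9:72953004-72953303. ALDH3B1 lies on the plus strand of chromosome 11 (68008547 to 68029276), and the table gave windows for 2 of its starts, chr11:68008297-68008596 and chr11:68010077-68010376.
ALDH1A1: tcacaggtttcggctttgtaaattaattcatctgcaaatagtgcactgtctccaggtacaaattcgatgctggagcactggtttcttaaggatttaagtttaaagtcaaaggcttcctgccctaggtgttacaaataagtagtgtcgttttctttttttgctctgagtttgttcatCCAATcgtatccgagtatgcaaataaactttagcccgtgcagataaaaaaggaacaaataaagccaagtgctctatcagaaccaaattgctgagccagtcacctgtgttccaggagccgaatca
ALDH3B1, upstream start: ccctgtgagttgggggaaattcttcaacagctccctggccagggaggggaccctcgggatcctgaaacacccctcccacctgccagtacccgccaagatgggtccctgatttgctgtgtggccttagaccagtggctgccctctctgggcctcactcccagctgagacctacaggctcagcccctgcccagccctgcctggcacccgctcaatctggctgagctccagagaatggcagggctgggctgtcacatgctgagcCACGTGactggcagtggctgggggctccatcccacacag
ALDH3B1, downstream start: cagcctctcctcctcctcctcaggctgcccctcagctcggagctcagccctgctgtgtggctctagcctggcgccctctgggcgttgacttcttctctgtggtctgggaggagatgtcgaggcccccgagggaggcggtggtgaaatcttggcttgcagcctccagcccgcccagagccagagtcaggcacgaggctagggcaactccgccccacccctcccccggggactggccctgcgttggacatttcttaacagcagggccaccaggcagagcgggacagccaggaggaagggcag

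The motifs were the TATA box (TATAAA), the CCAAT box (CCAAT), the E-box (CACGTG), the AP-1 motif (TGANTCA) and a core of the antioxidant response element (TGACNNNGC). The last pair can match overlapping bases. The ALDH1A1 window held 1 CCAAT box at position -74 from the start and no other match, and 34.6% of all 35116 promoter windows held a CCAAT box. The upstream ALDH3B1 window held 1 E-box at position 12, a motif found in 7.26% of all windows, and the downstream window held none of the 5. A TATA box was in 11.5% of all windows, an AP-1 motif in 7.71% and the antioxidant core in 13.3%, and none of these was in the 3 windows shown. The ALDH1A1 window was 40.3% G and C with 7 CpG, below the medians of 58.7% and 14 over all windows. The ALDH3B1 windows were 63.7% and 66.7% G and C with 4 and 12 CpG. A match gives letters only and does not show that a factor binds there. The table held 11 windows for 8 of the members.

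The levels of the members within the cells were compared in TPM, in which counts are divided by gene length and set to the same total in each library. Averaged over the 6 libraries, ALDH1A1 stood at 43.0 TPM, ALDH9A1 at 13.6, ALDH3A2 at 10.8, ALDH1B1 at 3.71, ALDH3B1 at 1.22, ALDH7A1 at 0.927, ALDH2 at 0.802 and ALDH1A2 at 0.0027, and ALDH1A3 was at 0. The level of ALDH1A1 exceeded that of 96.4% of the 18814 protein-coding genes in the TPM table. For ALDH9A1 this share was 87.0%, for ALDH3A2 83.4%, for ALDH1B1 62.0%, for ALDH3B1 45.0%, for ALDH7A1 42.2% and for ALDH2 41.1%. Within a library, ALDH1A1 was 2.48 to 4.30 times the level of ALDH9A1. ALDH9A1 was in turn 1.20 to 1.38 times that of ALDH3A2, so this smaller step also held in 6 of 6 libraries. Steps from ALDH3A2 to ALDH1B1, from ALDH1B1 to ALDH3B1 and from ALDH2 to ALDH1A2 likewise held in 6 of 6. At the low end the order was not fixed, since ALDH3B1 was above ALDH7A1 in 4 of 6 libraries and ALDH7A1 above ALDH2 in 5 of 6. Among 19 ALDH genes, these members and 10 others, ALDH1A1, ALDH9A1 and ALDH3A2 took ranks 1, 2 and 3 by TPM in every library. ALDH3B1 was at rank 11, 13 and 13 in the DOX-negative libraries and at rank 11 in each DOX-positive library.

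The retinaldehyde dehydrogenases ALDH1A1, ALDH1A2 and ALDH1A3 were examined first. ALDH1A1 had 166.2, 139.4 and 146.9 CPM in DOX-negative replicates 1, 2 and 3, from 10621, 8627 and 6995 counts. With DOX it had 181.6, 189.9 and 241.4 CPM, from 13727, 10442 and 17800 counts. Each library with DOX was above each one without it, and DOX-positive replicate 3 stood highest. ALDH1A1 averaged 150.9 ± 13.8 CPM in DOX-negative and 204.3 ± 32.4 CPM in DOX-positive libraries (SD, n = 3), and its log2 fold change was 0.44 (SE 0.11, 95% interval 0.20 to 0.67, adjusted p = 0.041). By p-value ALDH1A1 was at place 658 of the 17026 tested genes. This adjusted p was near the limit of 0.05 and rose above it in 10 of 20 alternatives, while the change was between 0.30 and 0.52 in all of them. Leaving out DOX-negative replicate 2 gave 0.38 (adjusted p = 0.17), DOX-negative replicate 3 0.41 (0.19), DOX-positive replicate 2 0.49 (0.071) and DOX-positive replicate 3 0.30 (0.10). In the TPM values as deposited, the ranges of ALDH1A1 overlapped, at 30.0 to 41.5 without and 37.5 to 57.9 with DOX.

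That overlap was read beside the makeup of each library. Protein-coding genes held 16.1 to 23.9% of the deposited TPM, and the noncoding RNA RN7SK alone held 21.2 to 27.1%, so the TPM of 1 gene moves with the share of such RNAs. Rescaled over protein-coding genes alone, to the same total as TPM, ALDH1A1 was at 202.9, 169.4 and 186.5 TPM without DOX and at 226.2, 226.3 and 309.0 TPM with DOX, and the groups did not overlap. This rescaling was chosen after the data had been seen. A model of these values (limma-trend) gave a log2 fold change of 0.43 for ALDH1A1 with an adjusted p of 0.11. Other ALDH genes also had no overlap on this scale. ALDH3B1 and ALDH18A1 were higher with DOX, the latter with a log2 fold change of 0.024 from counts. ALDH2 (4.20 to 4.53 TPM without and 3.61 to 3.99 TPM with DOX) and ALDH8A1 were lower. The share of all genes without overlap was not computed on this scale. Without DOX the 3 libraries held between 6.38 and 6.51% of counts in RN7SK, and with DOX between 5.83 and 7.79%. The part of this RNA in the changes was not tested.

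The other retinaldehyde dehydrogenases were at the limit of detection. ALDH1A2 had 1, 0 and 1 counts in the DOX-negative libraries and 3, 1 and 1 in the DOX-positive libraries. ALDH1A3 had 0 counts in all 6 libraries, which allows up to 0.040 to 0.063 CPM per library (3 counts, counting error only). Neither passed the filter on low counts, and a difference between the groups was not detectable at this depth. Of the ALDH1A transcripts, ALDH1A1 was therefore the 1 that could be compared.

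**Figure D1:**
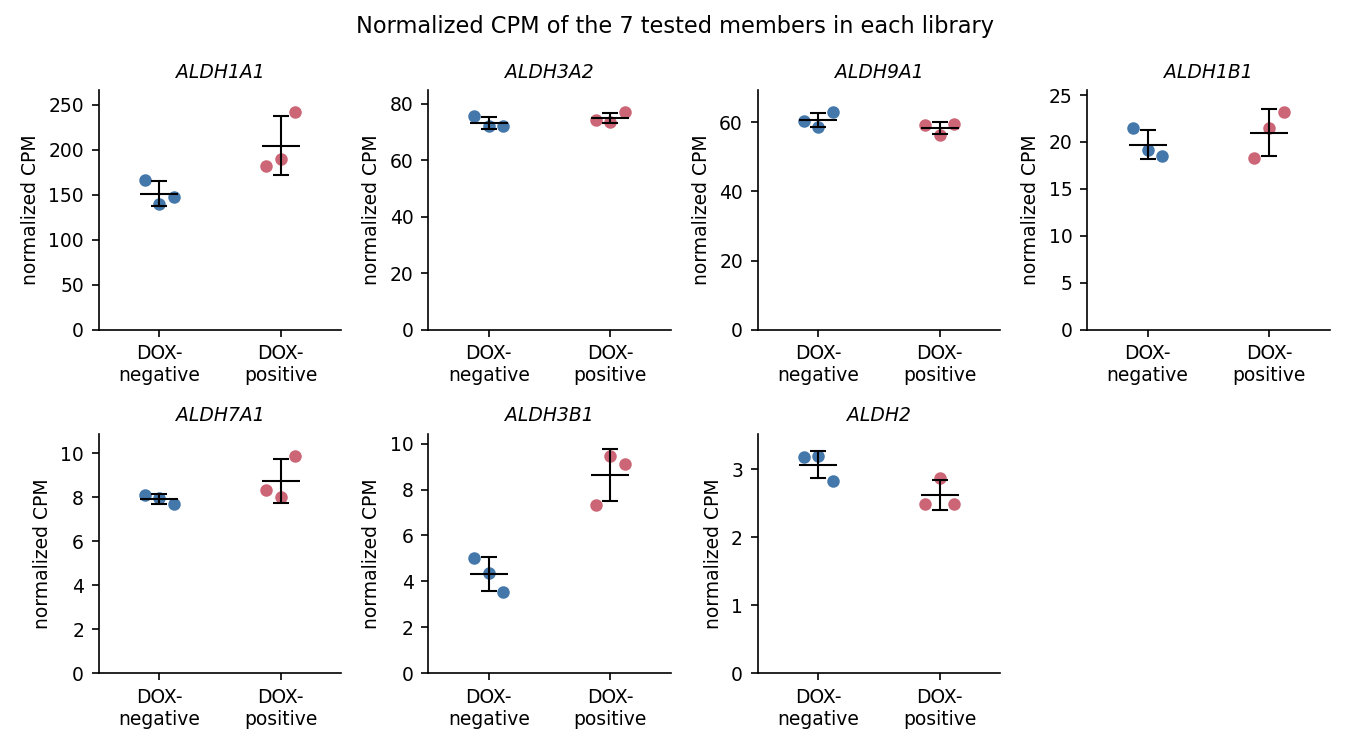
CPM (TMM-scaled) of the 7 tested members in each library (points; 3 DOX-negative in blue, 3 DOX-positive in red), with the group mean and SD as bars, on linear axes that start at 0. ALDH1A1 (139.4 to 166.2 against 181.6 to 241.4 CPM) and ALDH3B1 (3.55 to 5.04 against 7.34 to 9.47 CPM) are the panels in which the groups do not overlap.

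ALDH3B1, a lipid-anchored enzyme that oxidizes medium- and long-chain aldehydes, had the largest change among the tested members. It had 5.04, 4.38 and 3.55 CPM in DOX-negative replicates 1, 2 and 3 and 7.34, 9.47 and 9.11 CPM in DOX-positive replicates 1, 2 and 3. The counts behind these values were 322, 271 and 169 without DOX and 555, 521 and 672 with DOX. The lowest DOX-positive library was well above the highest DOX-negative one. Means were 4.32 ± 0.75 and 8.64 ± 1.14 CPM (SD, n = 3), and the log2 fold change was 0.99 (SE 0.14, 95% interval 0.68 to 1.31, adjusted p = 0.0056). ALDH3B1 was at place 52 of the tested genes by p-value. In TPM as deposited it was at 0.565 to 0.980 without DOX and at 1.46 to 1.70 with DOX, again without overlap. Its change was 0.87 to 1.12 with any 1 library left out, and it was called in each of these fits. The call was lost only on log2(TPM + 1), with a filter at a mean TPM of 1 (0.54, adjusted p = 0.054) and without one (0.54, adjusted p = 0.39). This scale lowers the estimate for a gene near 1 TPM, and these fits called only 30 and 0 of all genes. The cause of the lost call was not tested. The adjusted p values of ALDH3B1 in the alternatives ran from 9.9e-08 to 0.39. RefSeq lists GLTC1 as overlapping ALDH3B1, and its near copy ALDH3B2 had a mean of 11.0 counts per library, against 418.3 for ALDH3B1.

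ALDH3A2, the fatty aldehyde dehydrogenase of the endoplasmic reticulum, acts on long-chain aliphatic aldehydes, including those from sphingolipids. It had 75.7, 72.2 and 72.0 CPM without DOX and 74.1, 73.7 and 77.0 CPM with DOX. The groups overlapped and the spread within each was small. Its log2 fold change was 0.032 (SE 0.069, 95% interval -0.12 to 0.18, adjusted p = 0.84), so a change as large as that of ALDH1A1 lay outside the interval.

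ALDH9A1 oxidizes trimethylaminobutyraldehyde on the way to carnitine and other amino aldehydes. It had 60.4, 58.7 and 62.9 CPM without DOX and 59.2, 56.2 and 59.6 CPM with DOX, and the ranges overlapped. The log2 fold change was -0.057 (SE 0.072, 95% interval -0.21 to 0.099, adjusted p = 0.71). RefSeq places the pseudogenes RPS13P1 and RPL21P27 within its span on chromosome 1. ALDH3A2 and ALDH9A1 were thus the abundant members with the narrowest intervals.

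ALDH1B1 and ALDH2 are mitochondrial enzymes that oxidize acetaldehyde, and ALDH2 also clears lipid peroxidation products. ALDH1B1 had 21.5, 19.1 and 18.5 CPM without DOX and 18.3, 21.5 and 23.2 CPM with DOX. Its lowest and highest values were both in DOX-positive libraries, and the log2 fold change was 0.090 (SE 0.10, 95% interval -0.14 to 0.32, adjusted p = 0.68). ALDH2 had 3.18, 3.20 and 2.84 CPM without DOX, from 203, 198 and 135 counts. With DOX it had 2.49, 2.87 and 2.50 CPM, from 188, 158 and 184 counts. DOX-positive replicate 2 was above DOX-negative replicate 3, and the other libraries with DOX were below all those without. The log2 fold change of ALDH2 was -0.24 (SE 0.13, 95% interval -0.53 to 0.053, adjusted p = 0.34).

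ALDH7A1, antiquitin, takes part in lysine breakdown and in the handling of betaine aldehyde. It had 8.09, 7.98 and 7.69 CPM without DOX and 8.33, 8.0 and 9.89 CPM with DOX. DOX-positive replicates 1 and 3 were above each DOX-negative value, replicate 3 by the wider margin, and DOX-positive replicate 2 lay between the DOX-negative values. The log2 fold change was 0.14 (SE 0.11, 95% interval -0.093 to 0.38, adjusted p = 0.50). RefSeq names 4 pseudogenes of ALDH7A1, and how reads shared with such copies were counted was not stated in the sources used here.

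The makeup of the family was then followed within each library, since ratios within a library do not depend on its scaling. ALDH1A1 held 40.9, 37.5 and 39.1% of the summed TPM of the 19 ALDH genes in the DOX-negative libraries and 43.7, 44.4 and 49.6% in the DOX-positive libraries. Each DOX-positive share was above each DOX-negative share, at means of 45.9 ± 3.22% against 39.2 ± 1.68% (SD, n = 3; exact two-sided permutation p = 0.10). With 3 libraries a group, 0.10 is the smallest p that this test can give. Against ALDH9A1, whose own change was within its error, ALDH1A1 had a TPM ratio of 2.64 ± 0.24 without DOX and 3.71 ± 0.53 with DOX, without overlap (exact permutation p = 0.10, n = 3). The ratio to ALDH3A2 was 3.44 ± 0.22 and 4.55 ± 0.61 for ALDH1A1 and 0.077 ± 0.011 and 0.15 ± 0.019 for ALDH3B1, neither with overlap (exact permutation p = 0.10, n = 3). Within a library ALDH3B1 also gained on ALDH1A1, from a TPM ratio of 0.022 ± 0.0030 to 0.033 ± 0.0050, again without overlap (exact permutation p = 0.10, n = 3). In these same data ALDH1A1 and ALDH3B1 were called, and ALDH9A1 and ALDH3A2 were not. The ratios therefore restate those changes and are not an independent test.

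**Figure D2:**
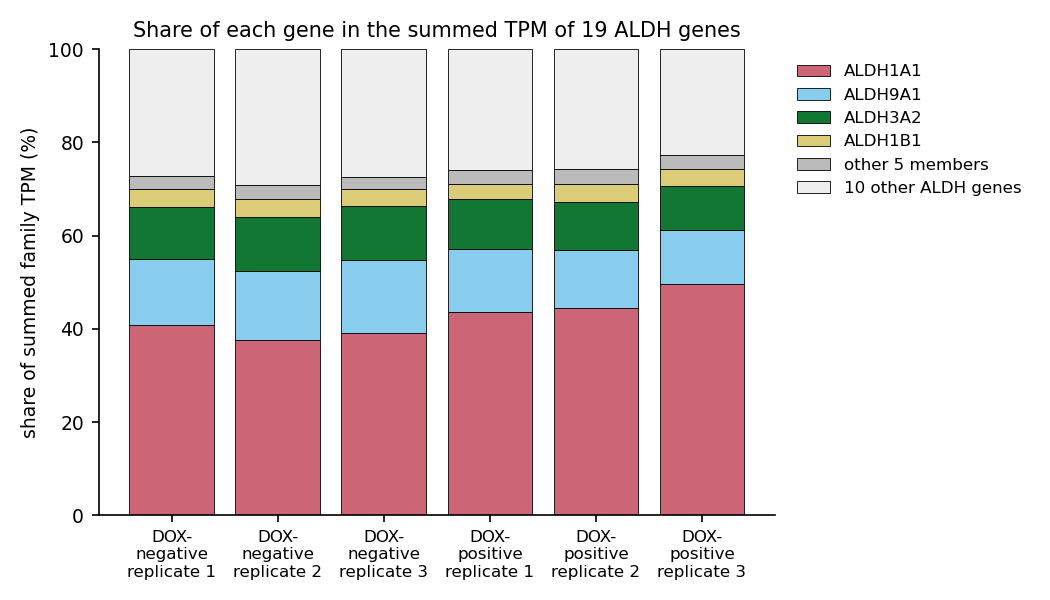
Share of each gene in the summed TPM of 19 ALDH genes (vertical axis, percent), 1 bar for each library. ALDH1A1 takes 37.5 to 40.9% of the bar in the DOX-negative libraries and 43.7 to 49.6% in the DOX-positive libraries, and the 10 genes that are not members make up the top segment.

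The summed TPM of the 19 genes, as deposited, was 92.1 ± 13.4 without DOX and 108.3 ± 21.0 with DOX (SD, n = 3), with overlap (exact permutation p = 0.30). Rescaled over protein-coding genes the sums were 475.0 ± 22.5 and 549.7 ± 63.3 TPM, without overlap (exact permutation p = 0.10, n = 3). With ALDH1A1 left out, the rescaled sums were 288.7 ± 6.00 and 295.9 ± 15.9 TPM and overlapped (exact permutation p = 0.60, n = 3). ALDH1A1 was called in these same data, so the sum without it is a description.

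The 10 other ALDH genes served as the nearest comparison. They remained after the 9 members had been chosen with earlier results known, so a contrast in calls with the members is not an independent test. Of these, 9 were tested and 0 were called in either direction by edgeR, and 0 were called in any fit that left out 1 library. Their median log2 fold change was 0.0023, with 5 above and 4 below 0. ALDH18A1, which makes a precursor of proline and ornithine, had 46.8 ± 1.11 CPM without and 47.6 ± 2.34 CPM with DOX (SD, n = 3). ALDH1L2, a mitochondrial folate enzyme, had 72.0 ± 3.30 and 79.0 ± 11.5 CPM. ALDH6A1, of valine breakdown, had 32.9 ± 2.55 and 33.0 ± 1.38 CPM. Chosen after the values were seen, ALDH8A1 had the largest estimate at -0.73 (SE 0.29, adjusted p = 0.17), from a mean of 24.8 counts per library. Its groups did not overlap in CPM (0.42 to 0.58 without and 0.24 to 0.38 with DOX). Those of ALDH5A1 did not overlap either, also lower with DOX. Over all tested genes 28.1% had no overlap.

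**Figure D3:**
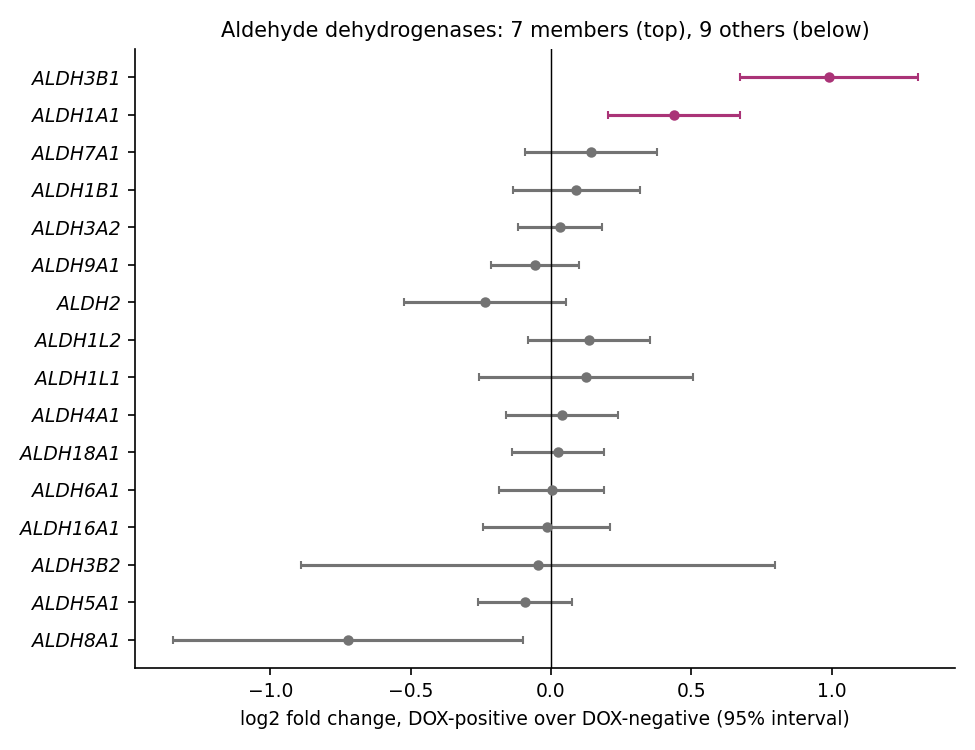
log2 fold change, DOX-positive over DOX-negative, with its 95% interval, for the 7 tested members (top) and the 9 other tested ALDH genes (below), from 3 against 3 libraries. The called genes, in purple, are ALDH3B1 (0.99) and ALDH1A1 (0.44), and of the intervals in grey only that of ALDH8A1 lies on 1 side of 0.

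The retinoid pathway, in which ALDH1A1 works, was compared next. Of 26 genes of retinoid uptake, binding, oxidation, breakdown and reception, 20 were tested, with 3 called higher and 0 lower. The median log2 fold change of the 20 was 0.16, and 15 were above and 5 below 0. Over all tested genes 4.87% were called and 2.91% called higher, and 8528 of 17026 changes were above 0. Like the members, the list was chosen with earlier results of these data known. The 3 called genes, RDH10, DHRS3 and RARG, act at the step before ALDH1A1 or respond to its product.

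RDH10 oxidizes retinol to retinaldehyde, the substrate of ALDH1A1. It had 15.5, 15.2 and 15.2 CPM without DOX and 19.4, 20.3 and 20.2 CPM with DOX, and the values within each group lay close together. The log2 fold change of RDH10 was 0.39 (SE 0.081, adjusted p = 0.021). DHRS3 reduces retinaldehyde back to retinol. It had 9.53, 9.08 and 9.39 CPM without DOX and 14.5, 17.0 and 17.6 CPM with DOX, and it showed the largest change of the tested retinoid genes that were called, at 0.81 (SE 0.099, adjusted p = 0.0024). RARG, a retinoic acid receptor, had 9.65, 7.40 and 8.34 CPM without DOX and 10.2, 12.6 and 13.3 CPM with DOX. The gap between its groups was narrow, and its change of 0.50 on the log2 scale (SE 0.13, adjusted p = 0.046) was just past the threshold.

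The other receptors and the enzymes that break down retinoic acid did not pass. Named after their values were seen, RARB was at 0.44 (SE 0.13, adjusted p = 0.068), RARA at 0.36 (SE 0.11, adjusted p = 0.091) and CYP26B1, which degrades retinoic acid, at 0.32 (SE 0.095, adjusted p = 0.074). CYP26A1 had a mean of 3.17 counts per library and was not tested. RARG missed the threshold in 13 of 20 alternatives, RDH10 in 8 and DHRS3 in 3, the last being the 3 fits of TPM as deposited. In place of 3 called retinoid genes, there were 6 with DESeq2, 1 on rescaled TPM, 0 in each of the 3 fits of TPM as deposited, and 1 to 5 when 1 library was left out.

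**Figure D4:**
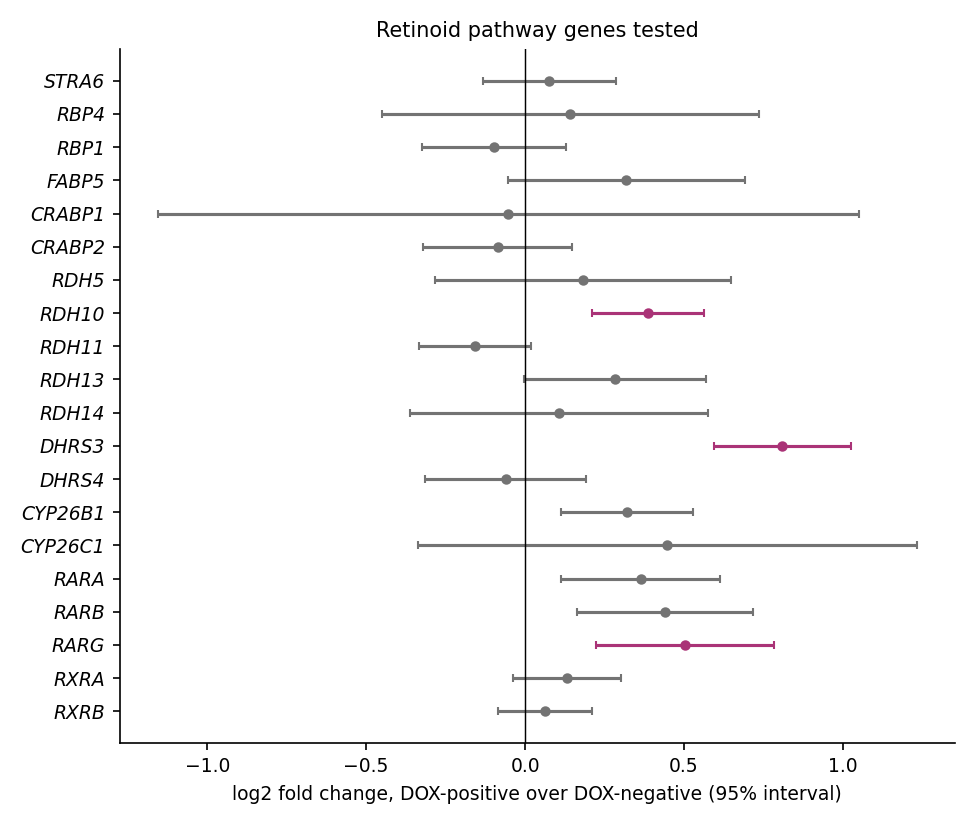
log2 fold change, DOX-positive over DOX-negative, with its 95% interval, for the 20 tested genes of the retinoid list, ordered by role from uptake and binding at the top to receptors at the bottom (3 against 3 libraries). The called genes, in purple, are RDH10 (0.39), DHRS3 (0.81) and RARG (0.50), and the RARA, RARB and CYP26B1 intervals also lie above 0.

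Genes around the reactions of the other members were examined in the same way. For comparison with the calls in each of these lists, 4.87% of all tested genes were called in either direction. Among 17 alcohol dehydrogenases and aldo-keto reductases, 8 were tested, with a median of -0.043. AKR1C3, a reductase of steroids and prostaglandins, was the 1 gene called, and it fell from 22.8 ± 0.66 to 17.7 ± 0.50 CPM (SD, n = 3). The log2 difference was -0.37 (SE 0.081, adjusted p = 0.026), and it missed the threshold in 8 of 20 alternatives. Its near copies AKR1C1 and AKR1C2 had means of 6.17 and 0.333 counts per library.

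Of 11 genes of the lysine, choline and carnitine routes that ALDH7A1 and ALDH9A1 serve, 10 were tested, with a median of -0.054. Here 1 gene was called, against 4.87% of all tested genes. DHTKD1, which acts in lysine breakdown after ALDH7A1, was called, and it fell from 118.0 ± 1.68 to 94.1 ± 2.52 CPM (SD, n = 3). This was -0.33 on the log2 scale (SE 0.068, adjusted p = 0.021), and DHTKD1 missed the threshold in 7 of 20 alternatives.

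The 14 genes of fatty aldehyde and sphingolipid metabolism, the surroundings of ALDH3A2, were all tested, and 0 were called, with a median of 0.073. SGPL1, which releases a fatty aldehyde from sphingosine phosphate, was at 0.15 (SE 0.069, adjusted p = 0.25), CERS2, a ceramide synthase, at 0.31 (SE 0.083, adjusted p = 0.053) and PHYH, of phytanic acid oxidation, at 0.21 (SE 0.085, adjusted p = 0.18). CERS2 passed the threshold in 4 of 20 alternatives, with no filter (adjusted p = 0.033), with DESeq2 (0.019), with the replicate block (0.039) and without DOX-positive replicate 1 (0.023), in a range of 0.019 to 1.0. Of 12 amine oxidase and polyamine genes, 11 were tested and 0 were called, with a median of -0.078. Only the oxidases among these yield aldehydes for the family. In the same 4 alternatives 1 gene of this list was called. SAT1, which acetylates polyamines, was at 0.20 (SE 0.066, adjusted p = 0.11), and the polyamine synthases SRM and SMS were at 0.065 (SE 0.098, adjusted p = 0.76) and -0.11 (SE 0.077, adjusted p = 0.47). At an unadjusted p under 0.05, 3597 of all tested genes passed.

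As a description, the genes whose log2 CPM followed that of ALDH1A1 most closely over the 6 libraries were sought among 14580 genes that averaged at least 50 counts. They were RNF144B, SLC35D2, SMAD1, USP13 and SLC22A5, with Pearson r from 0.996 to 0.9996. RNF144B was called itself (0.47, SE 0.12, adjusted p = 0.046), and the other 4 were not. With 6 libraries that share a treatment contrast, 303 genes had an r above 0.95 with ALDH1A1, so a high r sets a gene little apart.

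Markers of cell types were read beside these changes. All 9 neuroendocrine markers were detected and tested, with summed levels of 1762 to 1984 CPM without and 1518 to 1790 CPM with DOX. Of these, 2 were called lower, and 0 higher, where 4.87% of all tested genes were called in either direction. Log2 fold changes were below 0 for 6 markers and above 0 for 3, with a median of -0.16. INSM1 was at -0.45 (adjusted p = 0.039) and NCAM1 at -0.50 (adjusted p = 0.014) on the log2 scale. The 5 androgen receptor and luminal markers summed to 0.189 to 0.391 CPM without and 0.225 to 0.339 CPM with DOX, with KLK3 at 0.

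Of 7 fibroblast markers, 3 were tested, and COL1A1 (0.60) and LUM (1.06) were called higher. COL1A2, also tested, had a log2 fold change below 0 and was not called. The summed level was 25.2 to 30.7 CPM without and 23.5 to 27.9 CPM with DOX, COL3A1 was at 0, and DCN and PDGFRB each averaged under 1 count per library. Of 7 leukocyte and endothelial markers, 3 were tested, and VWF (0.97) and CDH5 (0.94) were called higher. Their summed level was 4.78 to 6.18 CPM without and 7.75 to 10.2 CPM with DOX, with CD3E at 0 and PTPRC and PECAM1 averaging 0.167 and 3.33 counts. Over all tested genes 4.87% were called and 2.91% were called higher, and with 3 tested markers in each list these counts are a description. The part of the cell type markers in the changes of ALDH1A1 and ALDH3B1 was not tested.

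**Figure D5:**
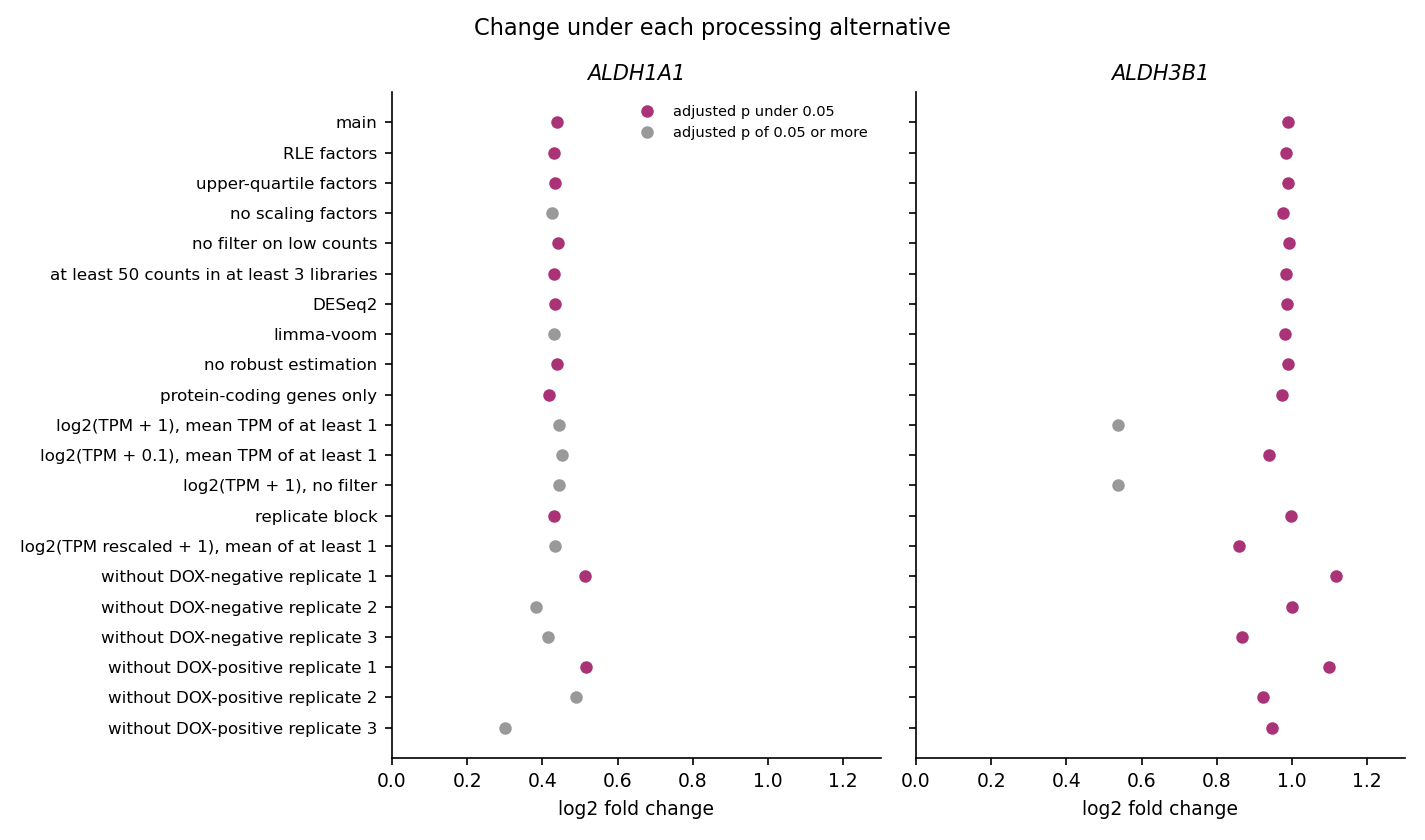
log2 fold change of ALDH1A1 (left) and ALDH3B1 (right) under the reported analysis and 20 alternatives, purple where the adjusted p is under 0.05 and grey where it is not. ALDH1A1 stays between 0.30 and 0.52 and is grey in 10 alternatives, and ALDH3B1 stays between 0.54 and 1.12 and is grey in 2, both on log2(TPM + 1).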

How the data were processed

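RNA from H660 cells with an inducible MUC1 shRNA was profiled in 3 DOX-negative and 3 DOX-positive libraries made, per the labels, with a stranded mRNA kit. RN7SK, which mostly lacks a poly(A) tail, held 21.2 to 27.1% of TPM, so the library type is uncertain. Groups were read from the sample titles, since the treatment and genotype tags of the labels do not describe them. The authors deposited whole-number counts for each gene symbol, in a table named for STAR, and TPM for 25673 genes. The submitters' processing notes name STAR, DESeq2, GRCh38 and hg38. Versions, annotation and the strand setting of the counting were not given in the sources used here.

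All 9 members and the lists of related genes were chosen with earlier results of these data known. Counts were filtered with filterByExpr, scaled with TMM factors (0.967 to 1.03) and tested with edgeR 4.0.16 in R 4.3.3 (glmQLFit with robust estimation, glmQLFTest, no covariate). The Benjamini-Hochberg adjustment ran over all 17026 tested genes, and calls were made at adjusted p values under 0.05. SE were derived from the F statistic. The biological coefficient of variation was 9.58%, and 3 libraries a group limit the precision. Sums and ratios of TPM were compared by exact two-sided permutation. On simulated counts for 16905 genes, 200 of 200 genes changed by a log2 fold change of 1 were recovered with 8 false calls. Each simulated gene had the common dispersion of 0.0092, and the changed genes were above 1 CPM. Recovery of smaller changes, or with a spread that differs between genes, was not simulated. Chi-square statistics of 15.6 to 95.1 per degree of freedom between libraries of a group left no pair that could be 1 library.

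The genes named were all members, MUC1, the called genes of each list or, where none was called, its 3 genes of highest mean TPM, and the 5 genes most like ALDH1A1. Exceptions are marked. Biotypes and positions came from a RefSeq table (GRCh38.p14), matched for 26611 of 28008 symbols (95.0%). Alternatives comprised no filter, no scaling, RLE and upper-quartile factors, a filter of at least 50 counts in 3 libraries, DESeq2 1.42.0, limma-voom and limma-trend (limma 3.58.1) on log2 TPM with pseudocounts of 1 and 0.1, no robust estimation, protein-coding genes only, a replicate block and leaving out each library. Limma-trend on TPM rescaled over protein-coding genes was added after the data had been seen.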

Additional observations from a re-analysis of the deposited data

How the results depend on the processing

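Over all alternatives ALDH1A1 and ALDH3B1 stayed higher with DOX. The ALDH1A1 change of 0.44 lost its call without scaling factors (0.43, adjusted p = 0.059), with limma-voom (0.43, 0.054), on log2(TPM + 1) with a filter (0.44, 1.0) and without one (0.44, 0.96), on log2(TPM + 0.1) (0.45, 1.0) and on rescaled TPM (0.43, 0.11). Leaving out 1 library gave 0.30 to 0.52. With the replicate block it was 0.43 (adjusted p = 0.0092) and with DESeq2 0.43 (0.0056). The 2 called members became 1 without scaling factors, with limma-voom, on log2(TPM + 0.1) and on rescaled TPM, and 0 on log2(TPM + 1) with or without the filter, and were 1 to 2 without 1 library. The number of called genes, 829, was 1354 with DESeq2, 30 on log2(TPM + 1), 35 on log2(TPM + 0.1), 243 on rescaled TPM and 0 on unfiltered log2(TPM + 1) by limma-trend (1248 at an unadjusted p under 0.05). Fits that left out 1 library called 58 to 1035 genes. The count was 58 when DOX-negative replicate 3 was dropped, 127 when it was DOX-negative replicate 2, and 375 when it was DOX-positive replicate 3. Called genes were 59.8% higher with counts and 43.3% and 45.7% higher on filtered log2(TPM + 1) and log2(TPM + 0.1). The cause was not tested.

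ALDH6A1, at 0.0023, was -0.0040 with RLE, -0.0011 with upper-quartile factors, -0.0084 without scaling, -0.0042 with the stricter filter, -0.0019 with DESeq2 and -0.016 on protein-coding genes. Without 1 library it was -0.065 to 0.037, ALDH18A1 -0.013 to 0.052 and SRM -0.039 to 0.13. Values of ALDH6A1 were -0.065 and -0.033 without DOX-negative and DOX-positive replicate 3, that of ALDH18A1 was -0.013 without DOX-positive replicate 2, and those of SRM were -0.0041 and -0.039 without DOX-negative replicate 3 and DOX-positive replicate 2. Among the 21 named genes other than ALDH1A1, fits with all 6 libraries left 255 values on the same side of the threshold and in the same direction, 26 weaker and 3 stronger, and fits without 1 library 104, 16 and 1. MUC1 lost its call only on unfiltered log2(TPM + 1) (adjusted p = 0.29).

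For libraries with the same replicate number, deviations from the group means correlated at -0.54, 0.019 and -0.10 over 14587 genes. With 3 libraries a group the deviations sum to 0 within each group, so this check cannot exclude a pairing. With the replicate block 998 genes were called, and the members called were ALDH1A1 and ALDH3B1.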

Other observations

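ALDH3B1 was followed by another set of genes over the 6 libraries, chosen by the measure used for ALDH1A1 after the data had been seen. The closest were IRS2, SCUBE2, PPP1R18, TRIM68 and ESAM, with Pearson r from 0.997 to 0.9993, and 525 of 14580 genes had an r above 0.95. IRS2, an adaptor of insulin signaling, had 31.4 ± 1.78 CPM without and 39.99 ± 1.83 CPM with DOX (SD, n = 3). All of these libraries share the treatment contrast, so these values are a description.

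Among untested or uncalled genes of the lists, named after their values were seen, MAOA, which oxidizes monoamines to aldehydes, had 39.4, 45.7 and 42.6 CPM without DOX and 37.8, 31.3 and 25.9 CPM with DOX. The groups did not overlap, and the log2 fold change was -0.43 (SE 0.12, adjusted p = 0.067). MAOB had 0 counts in all libraries. ALDH5A1, which oxidizes succinic semialdehyde from GABA, had 33.6, 34.3 and 34.5 CPM without DOX and 32.4, 30.7 and 32.8 CPM with DOX. Its groups did not overlap in CPM, as for 28.1% of all tested genes. In TPM, as deposited or rescaled over protein-coding genes, they did overlap. The change of ALDH5A1 was -0.092 on the log2 scale (SE 0.077, adjusted p = 0.54).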
